A study of Mus musculus with 2 samples.

Results

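The 5 protein kinase C (PKC) genes Prkca, Prkcb, Prkcd, Prkch and Prkcq were read here in single γδ T cells of the mouse lung. Their identifiers are Prkca (ENSMUSG00000050965), Prkcb (ENSMUSG00000052889), Prkcd (ENSMUSG00000021948), Prkch (ENSMUSG00000021108) and Prkcq (ENSMUSG00000026778). They were chosen by symbol and make up 5 of 32285 gene identifiers in the files. The choice was made with earlier results of these data known. From the same data the study had reported high Prkch and Prkca in IL-17-type Vγ1 T cells of Vγ4-/-/Vγ6-/- mice. Counts of members past 2-fold below are therefore not those of an unselected set. All 5 were found and all 5 passed the minimum of 30 unique molecular identifiers (UMIs, each standing for 1 captured transcript) in every comparison described. Cells were grouped by the variable gene of the TCR γ chain whose UMIs they held, and by a UMI of Tmem176b or Ly6c2. Tmem176b encodes a membrane protein known from IL-17-producing γδ T cells, and Ly6c2 encodes a surface antigen of IFN-γ-producing ones.

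PKC enzymes are serine/threonine kinases that act downstream of antigen receptors. Phospholipase C-γ cleaves a membrane lipid into inositol trisphosphate, which releases calcium, and diacylglycerol, which recruits PKC to the membrane. The classical isoforms PKCα (Prkca) and PKCβ (Prkcb) need calcium and diacylglycerol, whereas the so-called new-type isoforms PKCδ (Prkcd), PKCη (Prkch) and PKCθ (Prkcq) need diacylglycerol alone. In T cells PKCθ gathers at the contact with the presenting cell and activates NF-κB.

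The study asked which transcripts Vγ1+ T cells of the lung use when Vγ4 and Vγ6 T cells are missing. There were 2 droplet libraries, 1 per group, from uninfected mice aged 5 to 7 weeks. In the WT library these were C57BL/6NCrl mice, and γδ T cells lacking Vγ1 were flow-sorted from them. In the KO library Vγ1+ T cells had been sorted from Vγ4-/-/Vγ6-/- mice, whose strain label is B6.Cg-Tcrgtm1lku(B6.Vg4-/-Vg6-/-). The sort, the genotype, the strain and the library differed together and cannot be told apart, and the number of pooled animals is not given in the sources used here. With 1 library per group no test was possible, and each difference is one between these libraries with no replicate check. Every interval below is a 95% interval that covers counting error only; it treats UMIs as independent, although 1 cell gave up to 22 Prkca UMIs in WT and up to 30 Prkch UMIs in the KO-labelled library, so spread between cells is not in it.

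After the study's cell filter and the setting aside of 111 WT and 132 KO-labelled cells with B or myeloid transcripts, 2394 WT and 6502 KO-labelled T cells remained, with a median of 3272 and 3506.5 UMIs. The libraries shared 23 barcodes. The targeted genes were read first. Tcrg-V6 was read in 31.0% of WT cells. It was read in 0 of the 6502 KO-labelled ones, a count that allows up to 0.0567%. Tcrg-V4 had one in 21.7% of WT but also in 14.8% of KO-labelled cells, which goes against the label, so that directions below rest on the library labelled KO. Tcrg-V1, the gene sorted on, was read in 43.3% of KO-labelled and 8.02% of WT cells. At least 1 of Trdc, Cd3d, Cd3e and Cd3g was read in 99.3% of WT and 98.6% of KO-labelled Tmem176b cells, and in 98.4% and 99.4% of Ly6c2 cells.

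In the GRCm38 annotation the genes lie on separate chromosomes. Prkca spans chr11:107933387-108343928 on the minus strand, Prkcb chr7:122288751-122634402 on the plus strand, Prkcd chr14:30595354-30626210 on the minus strand, Prkch chr12:73584796-73778185 on the plus strand and Prkcq chr2:11172108-11301222 on the plus strand. Prkca overlaps 3 antisense genes of the files, Gm11657, Gm11655 and Apoh, and whether the counting used strand is not given, so its reads cannot be told apart from theirs. The other 4 overlap no other gene of the files. Promoter windows of 250 bases before to 50 bases after the start (RefSeq, GRCm38.p6) were at hand for 4 of the 5 genes. They are shown because, between the WT classes below, Prkca, Prkcb and Prkcq were past 2-fold and Prkcd was not. Capitals mark GGGCGG, the GC box bound by SP family factors, on either strand. The windows are chr11:108343839-108344138 (minus) for Prkca, chr7:122288875-122289174 (plus) for Prkcb, chr2:11172132-11172431 (plus) for Prkcq and chr14:30626159-30626458 (minus) for the upstream start of Prkcd.
Prkca: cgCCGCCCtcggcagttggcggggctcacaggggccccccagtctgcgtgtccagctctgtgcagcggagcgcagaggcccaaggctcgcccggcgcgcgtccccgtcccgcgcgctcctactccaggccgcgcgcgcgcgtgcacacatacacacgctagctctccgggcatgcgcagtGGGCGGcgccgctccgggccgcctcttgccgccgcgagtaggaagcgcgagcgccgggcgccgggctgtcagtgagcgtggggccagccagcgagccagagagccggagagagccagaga
Prkcb: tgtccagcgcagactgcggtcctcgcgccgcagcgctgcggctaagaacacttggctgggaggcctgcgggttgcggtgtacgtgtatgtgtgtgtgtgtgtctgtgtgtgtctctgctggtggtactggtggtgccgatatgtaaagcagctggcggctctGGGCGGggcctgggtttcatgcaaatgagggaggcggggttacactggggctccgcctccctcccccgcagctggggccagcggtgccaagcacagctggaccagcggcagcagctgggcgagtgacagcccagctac
Prkcq: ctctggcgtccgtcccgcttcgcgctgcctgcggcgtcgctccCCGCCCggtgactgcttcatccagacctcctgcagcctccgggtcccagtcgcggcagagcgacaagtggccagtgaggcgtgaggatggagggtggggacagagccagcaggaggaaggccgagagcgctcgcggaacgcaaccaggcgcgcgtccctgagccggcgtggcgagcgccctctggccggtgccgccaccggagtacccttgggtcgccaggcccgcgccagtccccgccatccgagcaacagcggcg
Prkcd: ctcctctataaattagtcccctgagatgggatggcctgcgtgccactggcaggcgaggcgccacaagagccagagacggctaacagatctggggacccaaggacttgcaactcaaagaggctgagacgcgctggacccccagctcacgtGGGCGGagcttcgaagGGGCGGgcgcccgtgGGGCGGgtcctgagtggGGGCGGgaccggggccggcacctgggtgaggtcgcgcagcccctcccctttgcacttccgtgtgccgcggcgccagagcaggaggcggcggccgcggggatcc
The GC box was found 2 times for Prkca, 1 time for Prkcb, 1 time for Prkcq and 4 times for Prkcd, and 35.7% of all 32851 promoter windows of this length hold it. The nuclear receptor core motif AGGTCA, the TCF/LEF core TCAAAG and the E-box CAGGTG were searched on both strands too. None of the 3 was in the windows of Prkca, Prkcb or Prkcq. That of Prkcd held 1 TCAAAG and 1 CAGGTG, which 16.0% and 20.2% of all windows hold, and 0 AGGTCA, which 16.3% hold. The window of the other Prkcd start, chr14:30610261-30610560 (minus), held 0 matches to each of the 4 motifs and is not printed. These matches describe letters in a window and not sites in use.

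Over all T cells the 5 genes gave 6715 UMIs in WT cells and 31201 in KO-labelled cells, or 796 and 1240 counts per 1000000 UMIs (CPM). Prkca and Prkch made up most of them in both libraries, but in another proportion. Prkca took 39.4% of the UMIs of the 5 genes in WT cells (95% interval 38.2 to 40.5) and 28.7% in KO-labelled cells. Prkch took 36.9% (35.8 to 38.1) and 47.6%. Prkcq held 12.9% and 14.6%, Prkcd 5.69% and 4.74%, and Prkcb 5.15% and 4.4%. These are shares of UMIs. Divided by exon length, Prkch held 38.3% and Prkca 34.2% of the 5-gene total in WT cells. Since each UMI stands for a captured transcript, counts need not scale with exon length. The divided shares are therefore no correction of the order by UMIs.

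The cells with a Tmem176b UMI and no Ly6c2 UMI, called Tmem176b cells from here, had another mixture from those with Ly6c2 and no Tmem176b UMI, called Ly6c2 cells. There were 1098 and 387 of them in WT, and 1314 and 1421 in the KO-labelled library. Prkch took 22.9% (20.4 to 25.5) of the 5-gene UMIs in WT Tmem176b cells and 41.7% (39.5 to 44.0) in WT Ly6c2 cells. Prkcd, which is mostly known as a regulator of cell death and of B cell tolerance, took 13.9% (11.9 to 16.1) and 4.52% (3.63 to 5.55). Thus the mixture of WT Tmem176b cells held less Prkch and more Prkcd. Prkcq took 19.4% (17.1 to 21.9) there and 11.3% (9.92 to 12.8) in Ly6c2 cells, while the intervals of Prkca, 37.8% (34.9 to 40.7) and 36.5% (34.3 to 38.7), overlapped, as did those of Prkcb at 5.99% and 5.94%.

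In KO-labelled cells the mixtures lay closer together. Prkch took 43.6% (41.9 to 45.2) in Tmem176b cells and 51.0% (49.9 to 52.2) in Ly6c2 cells. Prkcd took 8.09% (7.22 to 9.02) and 4.65% (4.17 to 5.16), and Prkca 26.0% and 26.5%. Of UMIs, Prkch was therefore the largest part in both KO-labelled classes, whereas Prkca was the largest part in WT Tmem176b cells. Divided by exon length, which as said above is no correction for UMIs, Prkca held 31.6% in WT Tmem176b cells. Prkch held 22.9%, Prkcq 20.7% and Prkcd 18.9% by that division. The WT cells with both UMIs numbered 39 and lay between, with 36.1% Prkch (29.1 to 43.5), and the 161 KO-labelled cells with both had 45.0%.

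**Figure D1:**
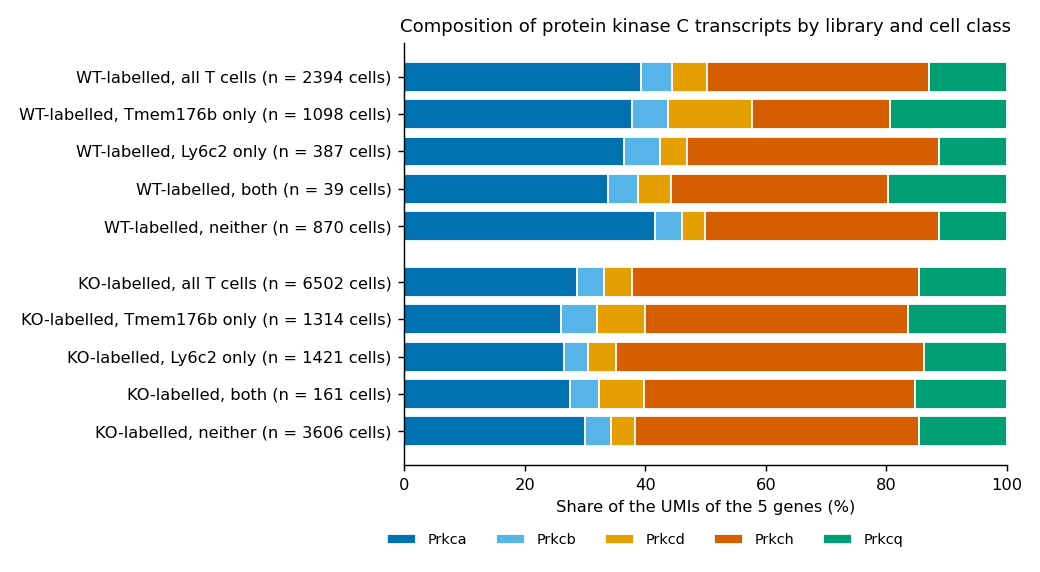
Share of each of the 5 genes in their summed UMIs (x axis, percent) by library and by cell class (y axis, with the number of cells). The Prkch part narrows to 22.9% in WT Tmem176b cells, where the Prkcd part widens to 13.9%, while Prkch holds 43.6% to 51.0% in the Tmem176b and Ly6c2 classes of the KO-labelled library.

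All 5 genes were lower in Tmem176b cells, but to unequal degrees. Prkch stood at 61.8 CPM (54.4 to 69.9) in WT Tmem176b cells and at 485 CPM (452 to 520) in WT Ly6c2 cells, a log2 ratio of -2.97 (-3.18 to -2.77). Prkca stood at 102 and 424 CPM, a log2 ratio of -2.05 (-2.23 to -1.88). Prkcb, at 16.2 and 69 CPM, had a log2 ratio of -2.09 (-2.55 to -1.64). As folds these were 7.85 for Prkch, 4.15 for Prkca and 4.26 for Prkcb, so that the ratio of PKCη transcripts stood apart even from those of the classical isoforms. The folds of this contrast and the ratios between the libraries rest on the low levels of WT Tmem176b cells. For Prkch, Prkca, Prkcb and Prkcq these levels cannot be told apart from free RNA, as set out further on. For Prkcq in both KO-labelled classes no free RNA level was set either, because most cells read for it also held T cell transcripts. Prkcq, the isoform best known in T cells, was lower by less, at 52.5 against 131 CPM, a log2 ratio of -1.32 (-1.60 to -1.04). Prkcd was the nearest to equal, at 37.5 and 52.5 CPM and a log2 ratio of -0.49 (-0.88 to -0.09). So 4 of 5 members were past 2-fold, all lower in Tmem176b cells, where 16.4% of the 9052 genes compared were past 2-fold in either direction. The median log2 ratio was -2.05 over the 5 members and 0.01 over all genes compared.

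The same contrast was smaller in KO-labelled cells. Prkch stood at 267 CPM in Tmem176b and 629 CPM in Ly6c2 cells, a log2 ratio of -1.24 (-1.32 to -1.15), and Prkca at 159 and 326 CPM, a log2 ratio of -1.04 (-1.15 to -0.92). Those 2 of 5 were past 2-fold, beside 12.7% of 10221 genes, although Prkca was not with no cell filter. Prkcq had a log2 ratio of -0.76 (-0.91 to -0.61) and Prkcb one of -0.45 (-0.71 to -0.19). The ratio of Prkcd, -0.21, had an interval that held 0 (-0.44 to 0.02). In both libraries Prkch had the lowest ratio of the 5 and Prkcd the one nearest 0.

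**Figure D2:**
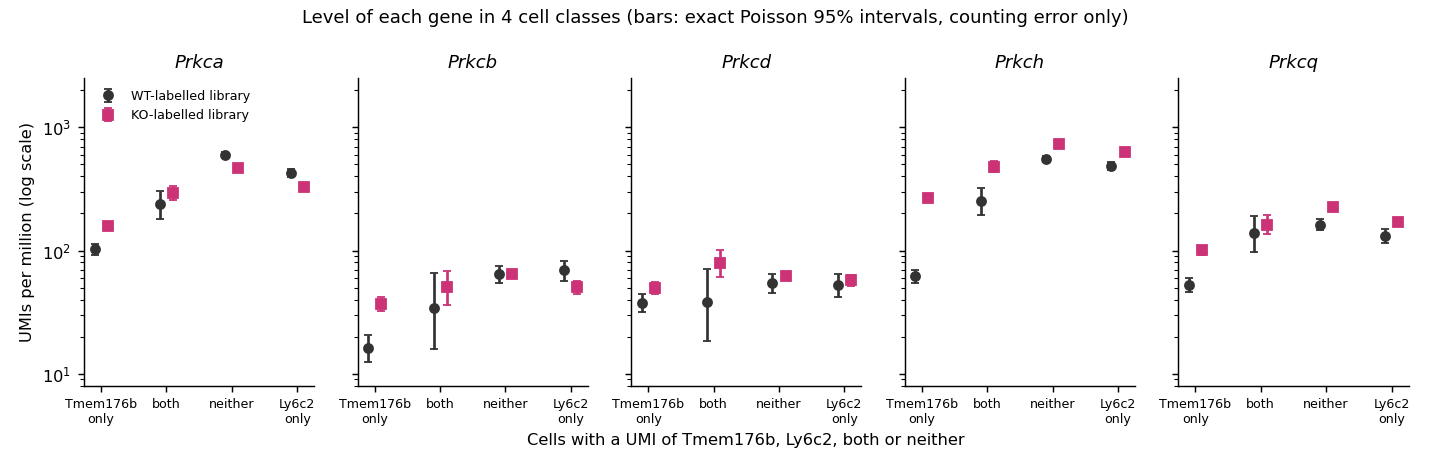
Level of each gene (y axis, CPM, log scale) in the cell classes of each library (x axis), with exact Poisson 95% intervals for counting error. Prkch runs from 61.8 to 556 CPM over the WT classes, whereas Prkcd stays between 37.5 and 54.1.

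Several measures moved with the Tmem176b class, and their part in these ratios was not tested. All 7 listed genes of IL-17-producing cells (Maf, Blk, Il17a, Il23r, Il1r1, Ccr6, Cd163l1) were read in WT Tmem176b cells and summed to 2570 CPM, against 71.5 CPM in Ly6c2 cells. In KO-labelled cells they summed to 814 against 142 CPM, with Ccr6 at 0 in Ly6c2 cells. The 6 listed genes of IFN-γ-producing cells (Tbx21, Eomes, Ifng, Cd27, Klrd1, Il2rb) went the other way in sum, with 947 and 1019 CPM in the Tmem176b cells against 1598 and 1484 CPM in the Ly6c2 cells of the WT and the KO-labelled library. Il2rb alone did not, at 830 against 671 CPM in WT and 710 against 703 CPM in KO-labelled cells. The 7 immediate early and heat shock genes (Fos, Jun, Junb, Egr1, Hspa1a, Hspa1b, Dnajb1) summed to 5902 and 5158 CPM in Tmem176b cells and 2860 and 3207 CPM in Ly6c2 cells. Not all were higher in Tmem176b cells. Dnajb1 stood at 249 against 255 CPM in WT and 292 against 287 CPM in KO-labelled cells, and Jun at 299 against 314 CPM in the latter. Myeloid genes stood at 4.76 to 8.55 CPM over these 4 classes, and C1qc was at 0 in WT Tmem176b cells. The 7 genes of the B list summed to 36.1 and 36.7 CPM in the WT Tmem176b and Ly6c2 cells and to 59.5 and 54.5 CPM in the KO-labelled ones, in 12.0% to 22.1% of cells, and Ms4a1 and Igkc were at 0 in all 4. The 5 listed genes of αβ T cells (Trac, Cd4, Cd8a, Cd8b1, Foxp3) summed to 34.1 CPM in Tmem176b against 86.1 CPM in Ly6c2 cells in WT, and to 45.6 against 118 CPM in the KO-labelled library. Trac itself stood at 30.9 against 31.8 CPM in WT and 21.4 against 32.2 CPM in KO-labelled cells. Cd8b1 stood at 1.96 against 31.2 and 13.1 against 70.2 CPM. Foxp3 went the other way in both libraries, but on only 3 against 0 UMIs in WT and 5 against 1 in KO-labelled cells. The 4 lung epithelial genes stood at 797 CPM in WT Tmem176b cells, in 0.364% of them, and at 4.28 to 8.88 CPM in the other 3 classes. Without cells of 3 or more such UMIs, an alternative added with the data known, the WT log2 ratio of Prkch was -2.97.

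Whether intronic reads were counted is not given, and 4 of the 5 genes span over 100 kilobases (Prkca 411, Prkcb 346, Prkch 193, Prkcq 129) while Prkcd spans 30.9. All genes of at least 100 kilobases together took 8.38% of the UMIs in WT Tmem176b cells and 8.04% in WT Ly6c2 cells, and 8.32% and 8.22% in the KO-labelled classes. The median log2 ratio of the 1107 such genes in the WT contrast was -0.02, and 10.7% of them were lower and 14.6% higher by 2-fold or more. Of the 5181 genes under 30 kilobases 5.54% were lower and 9.32% higher, so that long genes were more often past 2-fold in both directions.

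Cells with neither UMI had the highest Prkca. It stood at 598 CPM in 870 WT and at 465 CPM in 3606 KO-labelled cells, with Prkch at 556 and 729 CPM. A small subset had far more. The 156 WT cells of the class without a CD3 or Trdc UMI had a median of 1151.5 UMIs, and Prkca at 1717 CPM, against 505 CPM in the other 714. In the KO-labelled library 176 such cells had Prkca at 2177 CPM against 436 CPM in the other 3430. Genes of at least 100 kilobases took 31.0% and 28.2% of the UMIs of these subsets, against 10.3% and 9.38% in the rest of the class. The long noncoding RNA Malat1, a nuclear transcript, stood at 19675 and 15427 CPM against 6024 and 5524 CPM. Prkca in the class with neither UMI is therefore also given for cells with a CD3 or Trdc UMI, and the part of these shallow droplets in the higher values was not tested.

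At equal depth fewer Tmem176b cells had a UMI of any member. For this, 2000 UMIs were drawn from every T cell, and the 360 WT and 814 KO-labelled ones with fewer were dropped. Prkch was then detected in 9.06% (7.39 to 11) of 1037 WT Tmem176b cells and 55.4% (50.2 to 60.6) of 368 WT Ly6c2 cells. In the KO-labelled library it was detected in 32.2% (29.6 to 34.9) of 1244 and 65.7% (63.1 to 68.2) of 1332 cells. Without thinning the shares were 13%, 77.0%, 51.1% and 81.3%, in the same order. No member at all was detected in 66.0% of WT and 43.8% of KO-labelled Tmem176b cells, against 17.1% and 13.1% of Ly6c2 cells. Prkca and Prkch were detected in the same cell in 2.70% of WT Tmem176b and 29.1% of WT Ly6c2 cells, and in 10.0% and 28.2% in the KO-labelled library.

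Free RNA was gauged for Prkcq only, from the cells set aside for B or myeloid transcripts. B and myeloid cells are not known to use Prkcq. At 2000 UMIs per cell Prkcq was detected in 4.4% (1.21 to 10.9) of all 91 such WT cells, of median depth 4933 UMIs before thinning. In the KO-labelled library it was detected in 17.8% (11.4 to 25.9) of 118 such cells. Only 40 of the 91 and 17 of the 118 held no CD3 or Trdc UMI. Trdc, Cd3d, Cd3e and Cd3g summed to 1421 CPM in all WT and 2467 CPM in all KO-labelled cells set aside. In Ly6c2 cells they summed to 2288 and 2682 CPM. Those without a CD3 or Trdc UMI were also read, a choice that itself favours droplets with little T cell RNA. Of these, 0 of 40 in WT had a Prkcq UMI, which allows up to 8.81%, and 1 of 17 in the KO-labelled library did. WT Tmem176b cells, of median depth 3579 UMIs, had Prkcq in 9.16% (7.47 to 11.1), inside the interval of the 91 cells. WT Ly6c2 cells, with 18.2% (14.4 to 22.5), lay above it. KO-labelled Tmem176b and Ly6c2 cells had it in 15.6% (13.6 to 17.7) and 25.7% (23.3 to 28.1), both values inside the interval of the 118 cells. The 91 and 118 cells carried T cell RNA too, so their Prkcq may come from T cells. They therefore set no free RNA level. Prkcq of WT Tmem176b cells or of either KO-labelled class cannot be told apart from free RNA by this gauge. B and myeloid cells use PKCβ and PKCδ themselves, and macrophages are known to use PKCη. Of the same 40 WT cells 40.0% had Prkcd, 25% Prkcb, 22.5% (10.8 to 38.5) Prkch and 12.5% (4.19 to 26.8) Prkca. In WT Tmem176b cells Prkch was in 9.06%, Prkca in 14.5% and Prkcb in 2.41%. Since expression of their own may add to the shares of the 40 cells, those set no free RNA level for these 3 genes. Without such a level, free RNA and low expression cannot be told apart in WT Tmem176b cells for any of the 3.

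Set side by side, the libraries differed more in Tmem176b than in Ly6c2 cells. In Tmem176b cells all 5 genes were higher in the KO-labelled library. The Tmem176b cells of the libraries are not alike in makeup. The 7 listed genes of IL-17-producing cells summed to 2570 CPM in WT and 814 CPM in KO-labelled ones. At least 1 of them was read in 97.0% and 76.9% of these cells. The part of this makeup in the ratios was not tested. The log2 ratio of KO-labelled over WT was 2.11 (1.92 to 2.31) for Prkch, 1.18 (0.78 to 1.60) for Prkcb, 0.94 (0.71 to 1.17) for Prkcq, 0.64 (0.47 to 0.81) for Prkca and 0.40 (0.11 to 0.69) for Prkcd. Thus 2 of 5, Prkch and Prkcb, were past 2-fold, beside 7.20% of 9989 genes. In Ly6c2 cells 0 of 5 were past 2-fold, beside 5.15% of 9363 genes. There Prkch and Prkcq had log2 ratios of 0.38 and 0.37, so higher in KO-labelled cells, and Prkca and Prkcb lower, with -0.38 (-0.50 to -0.25) and -0.46 (-0.78 to -0.13). For Prkcd the interval held 0 (-0.22 to 0.48). The 2 ratios of a member share no cells, and the difference between them was not tested. Leaving out KO-labelled cells with a Tcrg-V4 UMI was added with the data known. The ratio of Prkch in Tmem176b cells was then 2.10, that of Prkca 0.61, and the counts past 2-fold were 2 and 0.

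**Figure D3:**
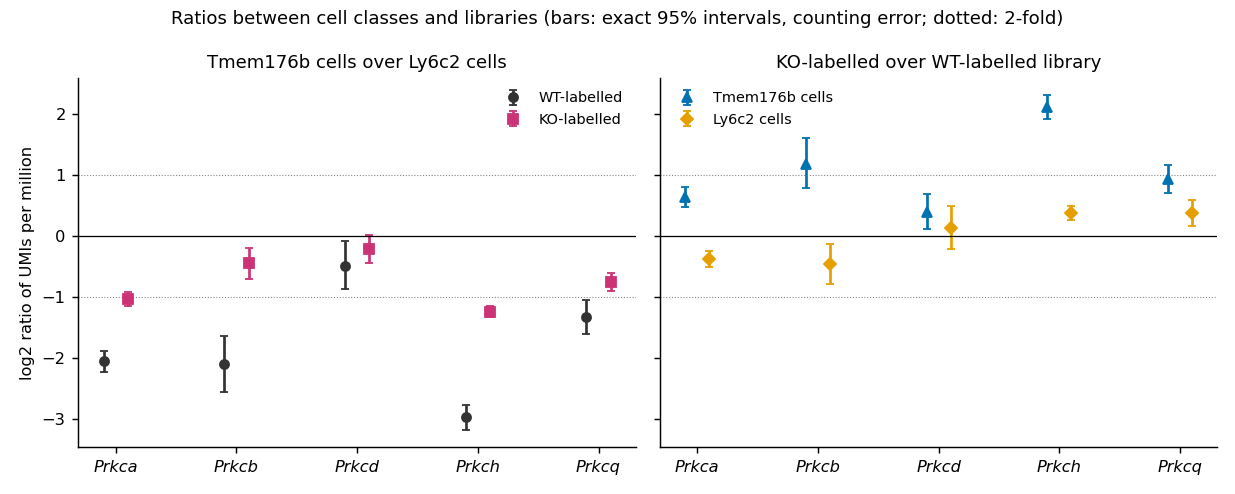
Log2 ratio of CPM of each gene (y axis), between Tmem176b and Ly6c2 cells within each library (left) and between the libraries within each class (right), with exact 95% intervals for counting error and dotted lines at 2-fold. Prkch has the lowest value on the left, -2.97 in WT, and the highest on the right, 2.11 in Tmem176b cells.

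The TCR variable gene separated WT cells in the same direction. Of WT cells with UMIs of only 1 such gene, 509 held Tcrg-V6 and 395 Tcrg-V4. Vγ6 T cells are known as a fetal-derived, IL-17-producing subset of lung and skin, and Vγ4 T cells produce IL-17 or IFN-γ. Prkch stood at 64.2 CPM in Tcrg-V6 and 333 CPM in Tcrg-V4 cells, a log2 ratio of -2.37 (-2.67 to -2.09). The log2 ratios of Prkca, Prkcb and Prkcq lay between -1.36 and -1.42, and that of Prkcd was -0.16 (-0.65 to 0.33). So 4 of 5 members were past 2-fold, beside 10.2% of 7990 genes. The classes are not alike in makeup, since 439 of the 509 Tcrg-V6 cells but 156 of the 395 Tcrg-V4 cells were Tmem176b cells.

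Within Tmem176b cells the contrast of Tcrg-V6 with Tcrg-V4, added with the data known, was smaller. Prkch stood at 36.3 and 87.0 CPM, a log2 ratio of -1.26 (-1.83 to -0.68), and Prkcq at 35.1 and 81.5 CPM, a log2 ratio of -1.22 (-1.80 to -0.62). These 2 of 5 were past 2-fold, beside 8.67% of 6888 genes. The intervals of Prkca (-0.86 to 0.03), Prkcb (-1.77 to 0.65) and Prkcd (-0.67 to 0.87) held 0, so that no difference was detectable at this depth. Tcrg-V6 Tmem176b cells had the lowest Prkch, Prkca, Prkcb and Prkcq of the 10 WT groups of at least 50 cells. Their mixture was 41.2% Prkca, 18.4% Prkcd, 17.6% Prkch, 17.0% Prkcq and 5.76% Prkcb.

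Vγ1 cells of the KO-labelled library had more Prkch and Prkcb than the WT Tmem176b cells of either type. Tcrg-V1 Tmem176b cells (n = 540) held Prkch at 257 CPM, a log2 ratio of 2.82 (2.44 to 3.23) over WT Tcrg-V6 and 1.56 (1.14 to 2.02) over WT Tcrg-V4 Tmem176b cells. Over Tcrg-V6 cells 3 of 5 were past 2-fold, Prkch, Prkcb (1.66) and Prkcq (1.39), beside 8.50% of 8372 genes. Over Tcrg-V4 cells 2 of 5 were past it, Prkch and Prkcb (1.05, 0.11 to 2.16), beside 9.72% of 7719 genes, and Prkcb rests there on 10 WT UMIs so that its log2 ratio ran from 0.38 to 1.44 over the alternatives. The intervals of Prkca, Prkcd and Prkcq over Tcrg-V4 cells held 0. For Prkcd the log2 ratios were 0.21 and 0.28, and both intervals held 0.

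Among Ly6c2 cells, Tcrg-V1 cells of the KO-labelled library (n = 420) and WT Tcrg-V4 cells (n = 88) had 0 of 5 members past 2-fold apart, beside 9.09% of 7081 genes. Prkcq was the most unequal, at 176 and 103 CPM, a log2 ratio of 0.78 (0.31 to 1.29), followed by Prkch at 0.43 (0.21 to 0.66). The KO-labelled cells with only Tcrg-V4 UMIs, 67 Tmem176b and 68 Ly6c2 cells, carried Prkch at 283 and 603 CPM, with intervals that overlapped those of the Tcrg-V1 cells of the same library, at 257 and 665 CPM. Over the 10 WT groups of at least 50 cells the highest level was 17.2 times the lowest for Prkch, 9.37 for Prkcb, 8.38 for Prkca, 4.95 for Prkcq and 2.90 for Prkcd. Over 15 KO-labelled groups these ranges were 2.96, 2.26, 4.03, 3.0 and 1.91, each smaller than in WT. The groups are unlike, since the WT minimum of 4 members is in Tcrg-V6 Tmem176b cells, of which the KO-labelled library has 0, and the WT maximum of Prkca, Prkch and Prkcq is in cells with neither class gene and no Tcrg-V UMI, the class that holds the shallow droplets described above.

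**Figure D4:**
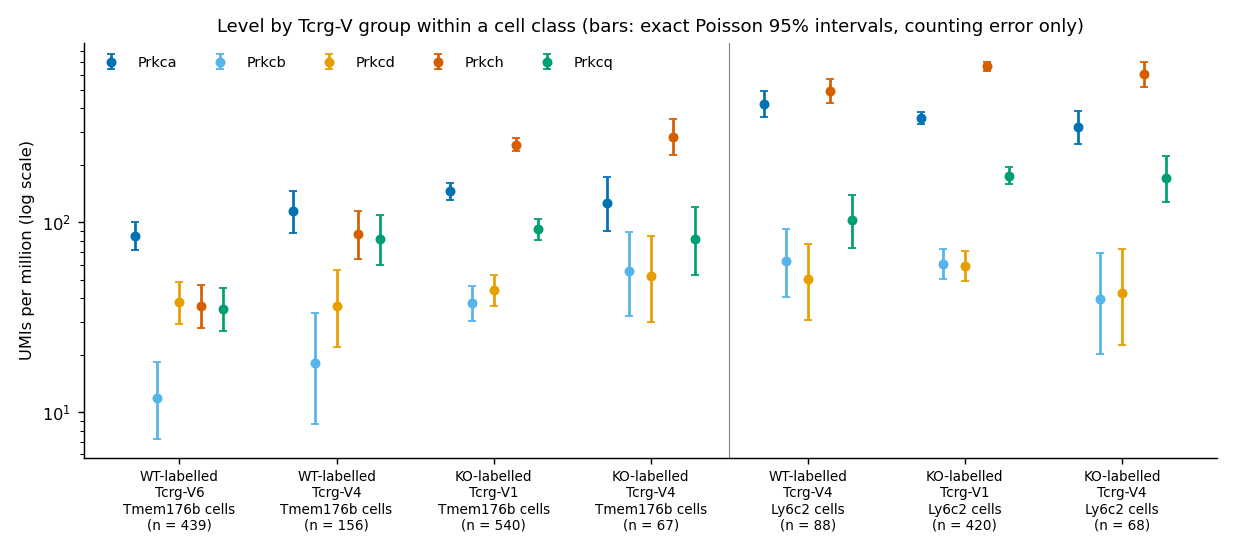
Level of the 5 genes (y axis, CPM, log scale) in cells with UMIs of a single Tcrg-V gene, within Tmem176b cells (left of the line) and Ly6c2 cells (right), with exact Poisson 95% intervals for counting error. Prkch rises from 36.3 CPM in WT Tcrg-V6 to 257 in KO-labelled Tcrg-V1 Tmem176b cells.

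Other genes of the pathway went both ways. Of 10 other PKC-related kinases 7 had at least 30 UMIs in the WT contrast of Tmem176b with Ly6c2 cells. Of these 1 was past 2-fold, beside 16.4% of the 9052 genes compared. This was Prkce, the isoform PKCε, which was higher in Tmem176b cells (56.9 against 26.9 CPM, a log2 ratio of 1.08, 0.61 to 1.58). In the KO-labelled library 2 of 7 were past 2-fold, beside 12.7% of 10221 genes. Both were higher, namely Prkce (1.73) and Prkcz, the atypical isoform PKCζ (2.02). Thus Prkce went the other way from the 5 members in both libraries. The median of the 7 was 0.01 in WT and 0.82 in KO-labelled cells.

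Of 7 genes that make or remove diacylglycerol, 5 had at least 30 UMIs in the WT contrast and 6 in the KO-labelled one. In each contrast 1 was past 2-fold, beside 16.4% and 12.7% of all genes compared. This was Dgka, a kinase that turns diacylglycerol into phosphatidic acid and so removes the activator of PKC. It was lower in Tmem176b cells, at 37.3 against 173 CPM in WT (-2.21) and 82.7 against 202 CPM in KO-labelled cells (-1.29). In Tmem176b cells it was higher in the KO-labelled library, with a log2 ratio of 1.15 (0.88 to 1.42). Plcg1, which encodes phospholipase C-γ1, had log2 ratios of -0.22 and -0.29, and both intervals held 0.

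Of 14 targets and partners, 13 in WT and 14 in KO-labelled cells had at least 30 UMIs. In each library 2 were past 2-fold, both higher in Tmem176b cells, beside 16.4% and 12.7% of all genes compared. These counts lie near those shares and are no result about the list. Rasgrp1, a diacylglycerol-bound activator of RAS, stood at 121 against 24.4 CPM in WT (2.31, 1.84 to 2.81) and 103 against 36.9 CPM in KO-labelled cells (1.48). Nfkb1 had log2 ratios of 1.41 and 1.18. Bcl10 and Malt1, which act between PKCθ and NF-κB, were within 2-fold, with Bcl10 at -0.30 and -0.69 and Malt1 at -0.29 and -0.57. The median of the list was -0.11 in WT and -0.10 in KO-labelled cells.

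**Figure D5:**
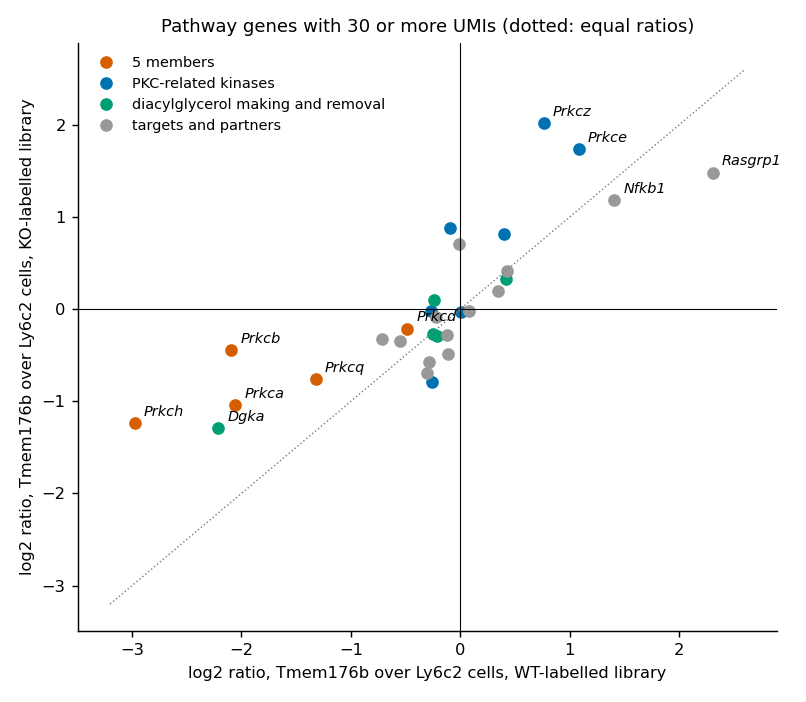
Log2 ratio of Tmem176b over Ly6c2 cells in the WT (x axis) and the KO-labelled library (y axis) for the members and the listed pathway genes with at least 30 UMIs in both, with names for members and for genes past 2-fold. The 5 members and Dgka lie at the lower left, and Rasgrp1, Nfkb1, Prkce and Prkcz at the upper right.

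Over 25 groups of at least 50 cells, 10 WT and 15 KO-labelled, the genes most like each member were found by Pearson correlation of log2 CPM among 8749 genes. These groups share their 2 libraries, so the values are a description. Prkch was most like Dgka (r = 0.97), Epb41 (0.96) and Myb (0.96), and Prkca like Aff3 (0.96), Foxp1 (0.95) and Myb (0.94). Prkcq was most like Slamf6 (0.95), Xdh (0.94) and Tcf7 (0.94), Prkcb like Dpp4 (0.91), Prkch (0.90) and Stk26 (0.89), and Prkcd like Zc3h12d (0.81), Rap2b (0.80) and Taf9 (0.80). Foxp1, Myb and Tcf7 encode transcription factors known from resting and early T cells. Among members the closest pair was Prkch and Prkcq (0.93) and the least close Prkcd and Prkcq (0.51).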

How the data were processed

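Transcripts were counted in 2 libraries of sorted lung γδ T cells, 1 per group, grouped by the sample titles. The authors deposited raw UMI counts per gene and cell barcode, made with Cell Ranger on mm10. The file headers name version 7.0.0 and the labels 7.0, and the study's methods name an older one. The labels name a 3′ kit and the methods a V(D)J kit. Whether introns and strand were counted is not given in the sources used here.

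Cells with over 200 and under 4000 genes and under 10% mitochondrial UMIs were kept, after the study's methods, and those with at least 3 UMIs over a myeloid or a B cell list were set aside. A Tcrg-V group is the cells with UMIs of only that Tcrg-V gene. No doublet caller was run. UMIs were summed over cells and given per 1000000 (CPM). Intervals are exact at 95%, Poisson for levels, Clopper-Pearson for shares and conditional for ratios, and cover counting error only. A gene was compared with at least 30 UMIs over both groups, and a UMI sum of 0 was set to a floor of 3. Past 2-fold means a log2 ratio of at least 1 either way and is no test. Exon lengths came from the GENCODE annotation of GRCm38. Named genes were the members, the 3 pathway lists, the 3 genes most like each member with at least 200 UMIs in all, and the grouping and marker genes. Malat1 and genes of at least 100 kilobases were added after the values had been seen. The members and lists were chosen with earlier results of these data known. Python 3.11.15 with numpy 2.4.6, scipy 1.17.1 and matplotlib 3.10.9 was used, and the ratio step was tested on simulated counts. Some listed genes are not reported here, and those of the IL-17, IFN-γ and target lists were left out of the sums and counts.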

Additional observations from a re-analysis of the deposited data

Results flagged for a closer look

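The difference between the libraries went opposite ways in the 2 cell classes for the classical isoforms. Prkca was higher in the KO-labelled library in Tmem176b cells (log2 ratio 0.64) and lower in Ly6c2 cells (-0.38). Prkcb did likewise, with 1.18 and -0.46. All 4 intervals for counting error lay on 1 side of 0, and with 1 library per group the difference between the classes was not tested.

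Members were also read in the cells set aside as B or myeloid, which entered no comparison. At 2000 UMIs per cell a UMI of at least 1 member was present in 69.2% of 91 such WT cells and in the KO-labelled library in 84.7% of 118. A CD3 or Trdc UMI was present in 47.7% and 77.3% of all cells set aside, and in those without one Prkcd was the most often detected member, at 40.0% of the 40 in WT against 29.4% of the 17 in the KO-labelled library.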

How the results depend on the processing

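No paired analysis was possible because there was 1 library per group. The 40 member ratios were recomputed under the alternatives in 475 values, of which 446 stayed inside the interval for counting error, 29 moved outside it and 0 changed the sign of a ratio whose interval lay on 1 side of 0. The 4 of 5 members past 2-fold between WT Tmem176b and Ly6c2 cells stayed 4 under each of 10 alternatives, and the Prkch shares of the 4 main classes stayed inside their intervals under each that applied. In the KO-labelled library the count of 2 members fell to 1 with no cell filter. Between KO-labelled Tcrg-V1 and WT Tcrg-V4 Tmem176b cells the count of 2 was the least settled. It was 1 with detection at 2 UMIs, with non-T cells set aside at 1 UMI, without the 5% of cells with most UMIs, with Tcrg-V at 2 UMIs, with the mean of the cells' own CPM and with median-ratio scaling, and 4 with cells thinned to 2000 UMIs. Between WT Tcrg-V6 and Tcrg-V4 cells 4 members became 2 within Tmem176b cells, an alternative added with the data known. The cause of these moves was not tested.

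Counts of all genes past 2-fold depended on the UMI minimum. In the order of the comparisons (WT classes, KO-labelled classes, libraries in Tmem176b cells, libraries in Ly6c2 cells, WT Tcrg-V6 over Tcrg-V4, KO-labelled Tcrg-V1 over WT Tcrg-V6, over WT Tcrg-V4, and over the latter in Ly6c2 cells) they were 1485, 1294, 719, 482, 811, 712, 750 and 644. With at least 100 UMIs they were 806, 812, 333, 171, 380, 300, 224 and 149, as fewer genes were compared. With no minimum beyond 1 UMI they were 5400, 4759, 4627, 4379, 4317, 3610, 4942 and 4891. With thinned cells the last pair was 476 and 418.

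The share of cells with a Prkch UMI depended on depth. Thinned to 1000 UMIs it was 4.38% of WT Tmem176b, 32.8% of WT Ly6c2, 22.2% of KO-labelled Tmem176b and 43.8% of KO-labelled Ly6c2 cells, and unthinned 13%, 77.0%, 51.1% and 81.3%. Depth limits Prkcb most, with 66 UMIs in WT Tmem176b cells.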
